A study of Mus musculus with 16 samples.

Results

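Pleiotrophin (Ptn), midkine (Mdk) and the cell-surface proteins that bind them were followed in mouse embryonic stem cells in which the Ptn gene had been targeted with transcription activator-like effector (TALE) proteins. The 10 genes were the ligands Ptn and Mdk and the receptors and binding partners Ptprz1, Ptprs, Alk, Lrp1, Sdc1, Sdc3, Sdc4 and Ncl. They were found by matching the accession printed beside each probe to RefSeq, which gave 14 of the 55681 probes on the array and 10 of the 20972 genes named by a probe with 1 symbol. Ptn, Mdk, Ptprz1 and Ncl had 2 probes each and the other 6 genes had 1.

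All cells were of the E14 line, a mouse embryonic stem cell line kept in serum with the cytokine LIF, and all were transfected with a cationic lipid, sorted for green fluorescence at 24 h, plated again and harvested at 48 h. Ptn_VP64 cells received a TALE aimed at the Ptn promoter and with VP64, a transcriptional activator built from repeated pieces of a herpesvirus protein, attached. Ptn_DEL cells received a TALE for the same promoter joined to DEL, an acidic peptide known for opening chromatin. Ptn_Delta cells received a TALE for Ptn whose label does not say what it carries, and EGFP cells received green fluorescent protein. Each group had 4 one-colour arrays, 16 in all. The study's description counts 2 biological and 2 technical replicates a group without saying which array repeats which, so p-values over 4 arrays may measure technical spread. Every comparison is of transiently transfected, sorted cells, and none of the groups was left untransfected.

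Pleiotrophin and midkine are the only members of a small family of secreted, heparin-binding growth factors. They bind chondroitin sulfate and heparan sulfate chains, and through them reach the receptor phosphatase PTPRZ1, syndecans, the endocytic receptor LRP1, cell-surface nucleolin and, by most accounts indirectly, the receptor kinase ALK. Binding of pleiotrophin to PTPRZ1 lowers its phosphatase activity, which leaves its substrates more phosphorylated. Pleiotrophin is known for its expression in developing nervous system, bone and mesenchyme, whereas midkine is abundant in embryonic stem cells and early embryos.

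The arrays limited what could be read. Level here is the log2 of a probe's signal over the 75th percentile of its array, so 0 is that percentile, and levels of different probes are not set against each other. Replicates 1 and 2 of all groups shared slide 1 and replicates 3 and 4 shared slide 2. Each group kept 1 column of the slide, so position on the slide and group cannot be told apart. The 75th percentile was a signal of 209.3 to 1253 on slide 1 and 566 to 935 on slide 2, and 27.1% to 41.2% and 36.1% to 43.8% of spots were well above background. Local shift, the median difference of neighbouring spots from their own median over the 16 arrays, was as low as −3.53 and −3.86 at the member probes on the 2 slides, in log2 units. It exceeded 1 in size at 39 of the member spots on slide 1 and 4 on slide 2. Of the 224 member spots, 33 (14.7%) were marked by the scanner software as uneven or as outliers. On 7 arrays the software gave 1 shared lowest signal to 22538 to 29205 spots, and 10 member spots stood at that floor, where values have no order. All 8 embryonic stem cell markers (Pou5f1, Nanog, Sox2, Zfp42, Esrrb, Klf4, Dppa5a and Tdgf1) were well above background on all 16 arrays.

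Ptn, the TALE target, was higher on all 4 Ptn_VP64 arrays than on the other 12, where its 2 probes ranged between levels at background and 0.99. The 250 bases before its RefSeq start are shown with those of Ncl, because the 2 windows differ in CpG content. Ncl is a member whose probe A_51_P134007 was well above background on all 16 arrays. The site bound by the TALE was not used here, so its place relative to the Ptn window is not given. Capitals mark CpG dinucleotides, and both windows are from RefSeq on GRCm38.p6, written 5′ to 3′ on the gene's strand. Ptn lies at chr6:36810180-36810429 on the minus strand, and Ncl at chr1:86359456-86359705 on the minus strand.
Ptn: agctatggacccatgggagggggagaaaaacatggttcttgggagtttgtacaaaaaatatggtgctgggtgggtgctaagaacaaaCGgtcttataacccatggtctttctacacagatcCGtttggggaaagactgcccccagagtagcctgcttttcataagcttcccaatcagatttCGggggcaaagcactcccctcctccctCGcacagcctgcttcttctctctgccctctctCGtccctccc
Ncl: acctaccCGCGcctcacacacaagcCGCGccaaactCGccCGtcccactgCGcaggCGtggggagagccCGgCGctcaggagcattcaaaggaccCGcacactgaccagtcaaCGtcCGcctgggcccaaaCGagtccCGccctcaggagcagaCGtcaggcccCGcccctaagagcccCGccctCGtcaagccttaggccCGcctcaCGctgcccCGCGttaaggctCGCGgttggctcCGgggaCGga
The Ptn window held 5 CpG and 52% G and C, against a median of 6 CpG and 52.4% over 32851 promoters of the same length. Among the other 9 windows found for the members, CpG counts ran between 10 and 32, with 27 in Ncl. Mdk is named only. The letters TATAA, read on both strands, occurred in the Ptn window 157 and 158 bases before the start, as overlapping matches on opposite strands, and CCAAT occurred 81 bases before it. Over all promoters 22.8% held TATAA, 33.8% held CCAAT and 32.7% held GGGCGG on either strand. GGGCGG was found 113, 87 and 72 bases before the Ncl start and in 8 of the 10 member windows, and these letters are not in the Ptn window. Such matches describe letters and do not show a factor bound there.

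Ptn probe A_55_P2164629 had levels of 2.65, 3.47, 3.67 and 2.61 on the Ptn_VP64 arrays (replicates 1 to 4). It had −2.59, 0.11, −1.62 and 0.69 on the Ptn_DEL arrays, 0.54, −0.88, −0.65 and 0.99 on the Ptn_Delta arrays, and −0.68, −1.25, −1.30 and −1.61 on the EGFP arrays. All 4 Ptn_VP64 arrays lay above all 12 others. Over all probes, 3.59% did not overlap in the higher direction between Ptn_VP64 and EGFP, 1.03% between Ptn_VP64 and Ptn_DEL and 0.956% between Ptn_VP64 and Ptn_Delta. The 3 other groups overlapped each other. The second probe, A_55_P2183404, had 3.54, 2.83, 3.10 and 3.96 with Ptn_VP64, −4.69, −1.03, −1.86 and 0.25 with Ptn_DEL, 0.07, 0.87, −2.36 and −5.23 with Ptn_Delta, and −3.37, −0.50, −0.10 and −1.85 with EGFP. Again the 4 Ptn_VP64 arrays stood apart from the 12 others. Its 3 lowest values, in Ptn_DEL replicate 1, Ptn_Delta replicate 4 and EGFP replicate 1, were at the floor of their arrays. All 8 Ptn_VP64 spots were well above background, against 13 of the 24 spots in the other groups. With the local shift subtracted, the Ptn_VP64 spots lay between 2.60 and 4.85 and the 24 others between −2.53 and 0.99.

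**Figure D1:**
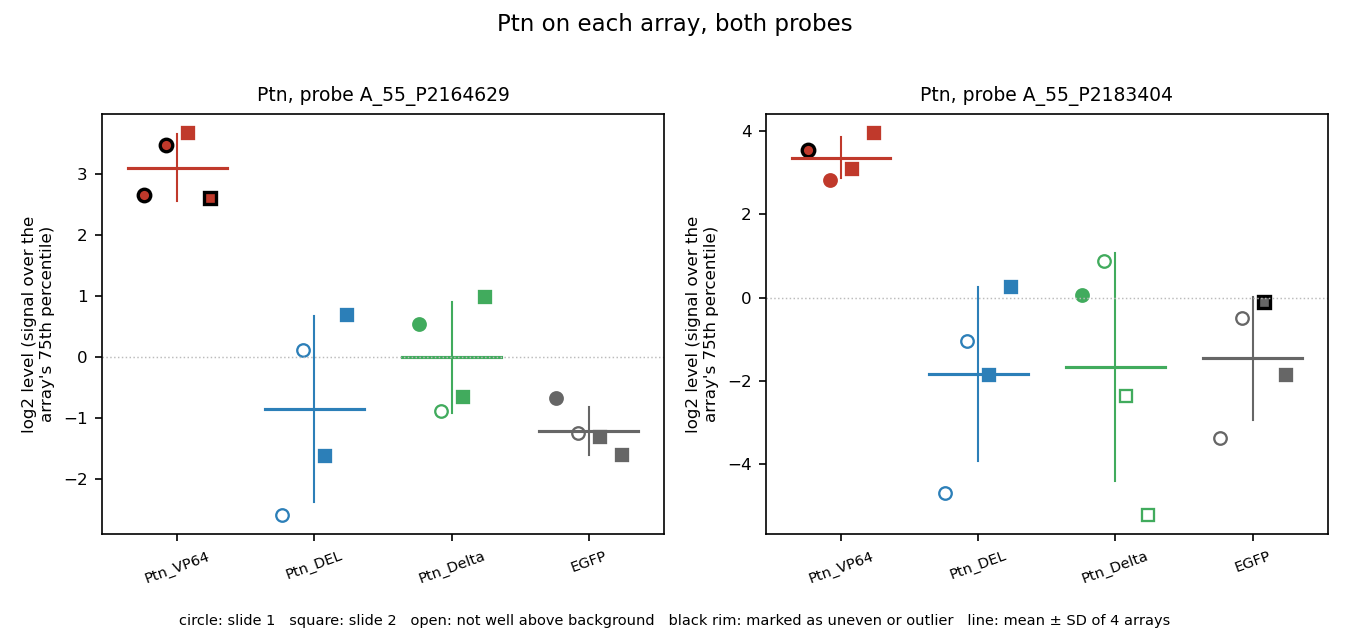
Ptn level (log2 of signal over the array's 75th percentile) on each of 16 arrays, for both probes, as measured. Points are arrays, lines are means with SD over 4 arrays, and the Ptn_VP64 points, at 2.61 to 3.96 as measured, lie above all points of Ptn_DEL, Ptn_Delta and EGFP.

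The mean level of the first probe was 3.10 ± 0.55 with Ptn_VP64 and −1.21 ± 0.39 with EGFP (SD, n = 4 arrays each), a difference of 4.31. Against Ptn_DEL (−0.85 ± 1.52) and Ptn_Delta (−0.00 ± 0.91) it was 3.95 and 3.10. The first probe was well above background on 2 Ptn_DEL, 3 Ptn_Delta and 3 EGFP arrays. Its differences, above all that from Ptn_DEL, thus rest in part on unmeasured levels. For the second probe the differences as listed were 5.19 from Ptn_DEL, 5.02 from Ptn_Delta and 4.82 from EGFP. Their size is not a measurement, since that probe was well above background on 2 Ptn_DEL, 1 Ptn_Delta and 2 EGFP arrays and each of these groups held a spot at the floor. With the local shift subtracted they were 4.01, 4.08 and 4.04, with the same floor spots. A 2-sided exact permutation test of 4 arrays against 4 gave p = 0.0286 for each of these 6 differences, the smallest it can give, and 0.0286 after Benjamini-Hochberg adjustment over the 6. The test counts technical repeats as replicates, and the 3 contrasts of a probe share the Ptn_VP64 arrays. Within slide 1 the first probe differed from EGFP by 4.02 and within slide 2 by 4.59.

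The fit over all probes was stricter, since it averaged the arrays to 2 samples a group, kept the largest p of the 3 possible pairings and left out marked spots. It gave Ptn 4.87 ± 1.03 (SE) in Ptn_VP64 over EGFP, a 29.3-fold higher signal, with an unadjusted p of 0.00159 and a limma adjusted p of 0.874, so the difference was not called. On that probe 3 of the 4 Ptn_VP64 spots were marked, so that replicate 3, the highest of the 4, alone carried the Ptn_VP64 value and was assumed to vary like the others. With the marked spots kept the signal was 19.8-fold higher, and with another background correction (normexp) the difference was 3.69. Ptn probe A_55_P2183404, with the floor spots above, gave 5.08 ± 1.34 from 3 unmarked Ptn_VP64 arrays (unadjusted p = 0.00626, limma adjusted p = 1.00). With the 16 arrays unaveraged and marked spots kept, Ptn was called at 4.31 ± 0.69 (limma adjusted p = 0.0313), where 0.0907% of all probes were called. That call was lost when any of the 8 arrays was left out, with 4.13 to 4.53 and limma adjusted p of 0.0736 to 0.149. On patch-corrected levels, with the local shift subtracted and spots of large shift left out, the second probe was called at 4.37 ± 0.84 (limma adjusted p = 0.0436), where 1.71% of all probes were called.

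In neither of the other 2 TALE groups did the difference of Ptn from EGFP pass the test. Ptn_DEL differed by 0.36 ± 0.84 on the first probe (unadjusted p = 0.683) and by 0.06 ± 1.34 on the second. Ptn_Delta differed by 1.21 ± 0.84 (unadjusted p = 0.190) and by −0.11 ± 0.89. Ptn_DEL and Ptn_Delta differed from each other by −0.85 ± 0.84. A p that misses the threshold does not show that these levels are alike, and the standard errors are near 1 log2 unit. Ptn_VP64 was 4.52 ± 1.03 above Ptn_DEL (unadjusted p = 0.00248) and 3.67 ± 1.03 above Ptn_Delta (unadjusted p = 0.00771), and limma adjusted p was 1.00 for both. These values rest on the same single Ptn_VP64 array. The Ptn_DEL differences of the first probe also rest in part on unmeasured levels, since it was well above background on 2 Ptn_DEL arrays.

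Cell types known to make pleiotrophin were checked by their markers. The summed linear level of 7 neural markers was 3.13 to 5.30 on Ptn_VP64 arrays, 5.07 to 8.90 on Ptn_DEL, 2.60 to 4.68 on Ptn_Delta and 2.74 to 9.34 on EGFP arrays. Pax6 was well above background on all 16 arrays, Tubb3 on 12, Nes and Sox1 on 11 each, and Fabp7, Olig2 and Gfap on 1 each. In Ptn_VP64 over EGFP, Sox1 differed by −2.92 ± 0.81 (unadjusted p = 0.00433), Nes by 1.75 and Tubb3 by 0.66, and 2 of the 4 neural markers tested were higher and 2 lower. Sox1 was well above background on 1 Ptn_VP64 and 3 EGFP arrays, and Nes on 4 Ptn_VP64 arrays and 1 EGFP array. The low side of each of these 2 differences thus rests mostly on unmeasured levels. For 7 fibroblast markers the sum was 2.04 to 6.99, 1.20 to 3.36, 1.71 to 6.81 and 0.99 to 3.35 in the same order of groups. The collagen gene Col1a1 differed by 3.37 ± 1.06 in Ptn_VP64 over EGFP (unadjusted p = 0.0117), and was well above background on 4 Ptn_VP64 arrays against 1 EGFP array. Col1a2 differed by 2.31 ± 0.89 (unadjusted p = 0.0301), but was well above background on 3 Ptn_VP64 arrays and 0 EGFP arrays. The size of its difference is thus not a measurement. Pdgfra differed by −1.12, and Postn was well above background on 0 arrays. Of 5 fibroblast markers tested, 4 were higher and 1 lower in Ptn_VP64, as in Ptn_DEL, and 3 higher and 2 lower in Ptn_Delta. The 7 trophoblast markers summed to 21.3 to 167 with Ptn_VP64, 12.7 to 46.9 with Ptn_DEL, 14.0 to 57.7 with Ptn_Delta and 3.59 to 21.4 with EGFP. All 6 trophoblast markers tested were higher in Ptn_VP64 than in EGFP, with a median of 2.28. All 6 were also higher in Ptn_DEL than in EGFP (median 1.14), and 4 were higher and 2 lower in Ptn_Delta (median 1.54). Between Ptn_VP64 and Ptn_DEL 3 were higher and 3 lower. The keratin gene Krt18 differed by 4.30 ± 1.20 (unadjusted p = 0.00455) and Krt8 by 4.13 ± 1.58 (unadjusted p = 0.0285). The transcription factor gene Gata3 differed by 2.97 ± 0.78 (unadjusted p = 0.00319), with a marked EGFP spot left out. With every spot kept, Gata3 ran from −2.41 to 3.15 in EGFP and from 0.20 to 2.56 in Ptn_VP64, so the groups overlapped. Gata3 was well above background on 1 EGFP array, and Elf5 on 0 of all arrays. The 6 endoderm markers summed to 1.61 to 1.97, 1.20 to 3.88, 1.47 to 3.21 and 0.83 to 1.80. Foxa2, Gata6 and Sox17 differed by 0.95, 0.56 and 0.46 in Ptn_VP64 over EGFP. Foxa2 was well above background on 3 Ptn_VP64 arrays and 0 EGFP arrays, so the size of its difference is not a measurement. Of the 8 embryonic stem cell markers 2 were higher and 6 lower in Ptn_VP64, with Dppa5a at −0.80, Nanog at −1.10 and Klf4 at −0.42 over EGFP. The counts were the same in Ptn_DEL and in Ptn_Delta over EGFP. No marker was called, and limma adjusted p was 0.979 for Gata3 and 1.00 for the others named. The trophoblast sums reached higher values with Ptn_VP64, Ptn_DEL and Ptn_Delta than with EGFP. The fibroblast sums did so with Ptn_VP64 and Ptn_Delta, and reached 3.36 with Ptn_DEL against 3.35 with EGFP. The part of either marker set in the Ptn result was not tested. In such bulk RNA, a change in the share of cells of a type and a change in RNA per cell cannot be told apart.

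Of the 10 genes, Ptn alone had all Ptn_VP64 arrays apart from those of the 3 other groups. None of the 12 probes tested was called in any of the 6 comparisons, and 0% of all probes were called in each of them. At an unadjusted p under 0.05, Ptn_VP64 against EGFP had 2 of 12, both Ptn, where 3.36% of all probes passed. Ptn_DEL against EGFP had 0 of 12 (2.47% of all probes) and Ptn_Delta against EGFP had 1, Sdc1 (3.82%). Ptn_VP64 against Ptn_DEL had 2, both Ptn (1.77%), Ptn_VP64 against Ptn_Delta had 3, both Ptn and 1 Mdk probe (2.97%), and Ptn_DEL against Ptn_Delta had 0 (0.884%). Of the 12, 7 were higher and 5 lower in Ptn_VP64 than in EGFP, with a median difference of 0.32, against 0.02 over all probes, of which 51.6% were higher. In Ptn_DEL 10 were higher and 2 lower (median 0.17, against 0.12 over all probes), and in Ptn_Delta 7 were higher and 5 lower (median 0.06, against 0.14). Those 3 contrasts share the EGFP arrays. Ptprz1 A_51_P206405 and the Sdc3 probe did not pass the filter, which asked for a signal well above background on at least 4 arrays.

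**Figure D2:**
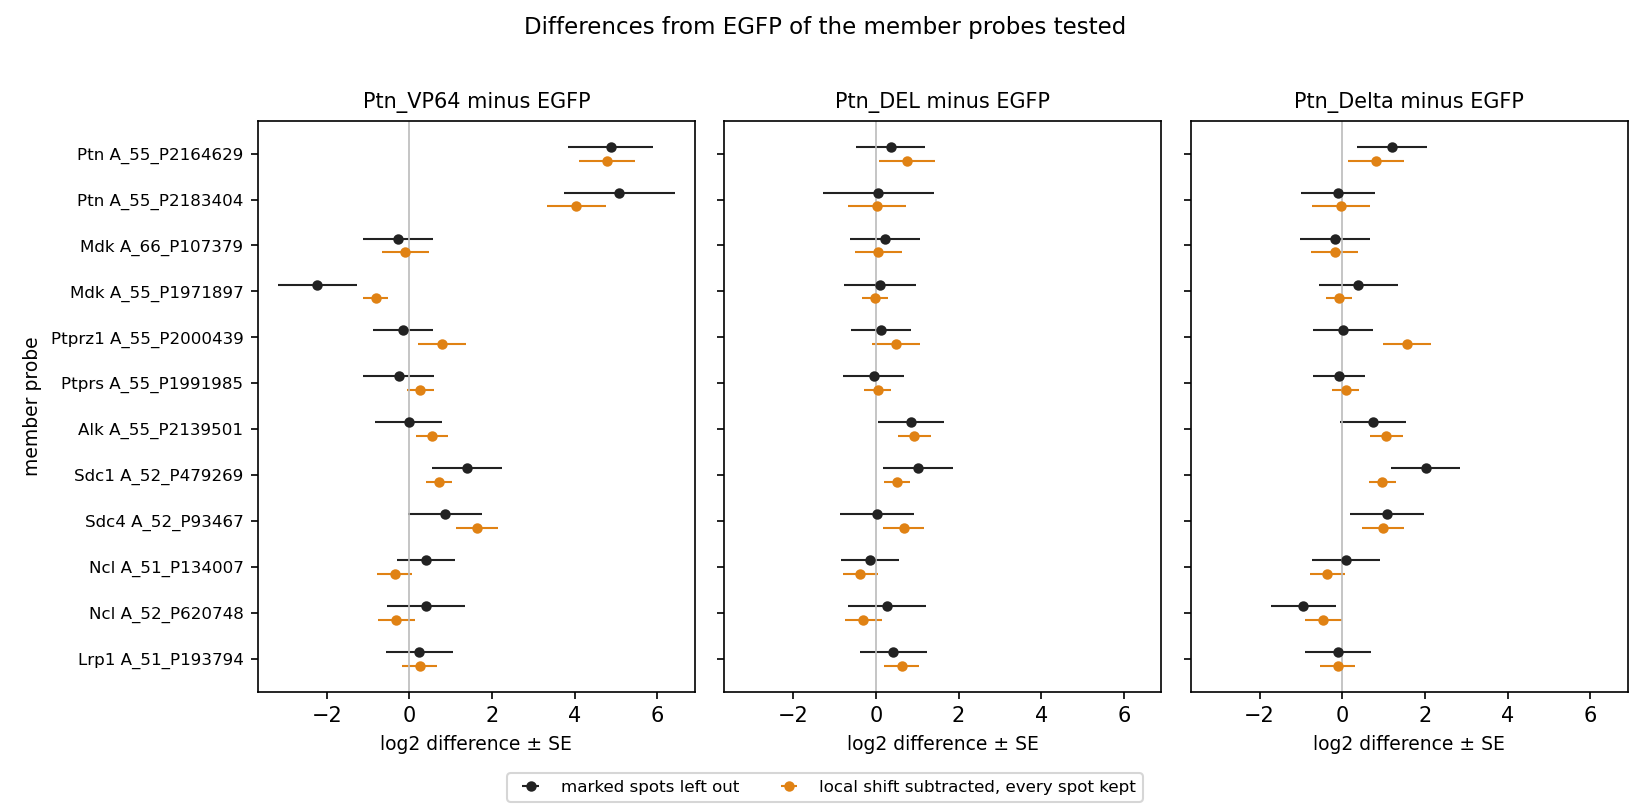
Difference in level (log2) of each member probe that passed the filter, for Ptn_VP64, Ptn_DEL and Ptn_Delta over EGFP, with the standard error of the fit, with marked spots left out and with the local shift subtracted and every spot kept. The 2 Ptn probes stand at 4.87 and 5.08 in the Ptn_VP64 panel with marked spots left out, and at 0.36 and 0.06 in the Ptn_DEL panel.

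Mdk, the other ligand, was well above background in all 4 groups. Both of its probes had lower means in Ptn_VP64 than in EGFP, by amounts of unlike size. Probe A_66_P107379 had 3.92, 3.70, 3.79 and 4.22 with Ptn_VP64, 3.59, 4.78, 4.33 and 4.65 with Ptn_DEL, 5.08, 5.45, 4.09 and 4.08 with Ptn_Delta, and 5.21, 5.62, 4.30 and 4.16 with EGFP. The Ptn_VP64 values overlapped those of every other group, although 3 of them lay below all EGFP arrays. In the fit the difference from EGFP was −0.27 ± 0.84 (unadjusted p = 0.761). With marked spots kept it was −0.91, at −1.60 within slide 1 and −0.22 within slide 2. Probe A_55_P1971897 had 0.82, 2.92, 3.47 and 1.82 with Ptn_VP64, 2.90, 3.72, 4.11 and 4.84 with Ptn_DEL, 5.30, 3.95, 4.23 and 4.37 with Ptn_Delta, and 5.24, 3.47, 4.65 and 4.14 with EGFP. Here the 4 Ptn_VP64 arrays lay below all Ptn_Delta arrays, where 3.26% of all probes did not overlap in the lower direction, and 3 of them lay below all EGFP arrays. The difference from EGFP was −2.23 ± 0.96 (unadjusted p = 0.0559) and from Ptn_Delta −2.62 ± 0.96 (unadjusted p = 0.0316), with limma adjusted p of 1.00 for both. Within slide 1 the second probe differed from EGFP by −2.48 and within slide 2 by −1.75, with marked spots kept. Marks fell on 8 of the 16 spots of the first probe and 6 of the second, which left 2 Ptn_VP64 arrays in each fit.

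Local shift moved with the second Mdk probe. It was −2.45, −1.26, 0.24 and −0.95 at that spot on the Ptn_VP64 arrays and 1.12, −0.67, 0.39 and −0.03 on the EGFP arrays. With it subtracted, the levels were 3.27, 4.17, 3.23 and 2.76 with Ptn_VP64, against 4.12, 4.13, 4.26 and 4.17 with EGFP. Then 3 of the 4 Ptn_VP64 arrays were below all EGFP arrays, and the difference was −0.81 ± 0.30 (unadjusted p = 0.0396, limma adjusted p = 0.706). From Ptn_Delta it was −0.73, against −2.20 as measured with every spot kept, and the Ptn_VP64 and Ptn_Delta arrays then overlapped. The first probe then differed from EGFP by −0.10.

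**Figure D3:**
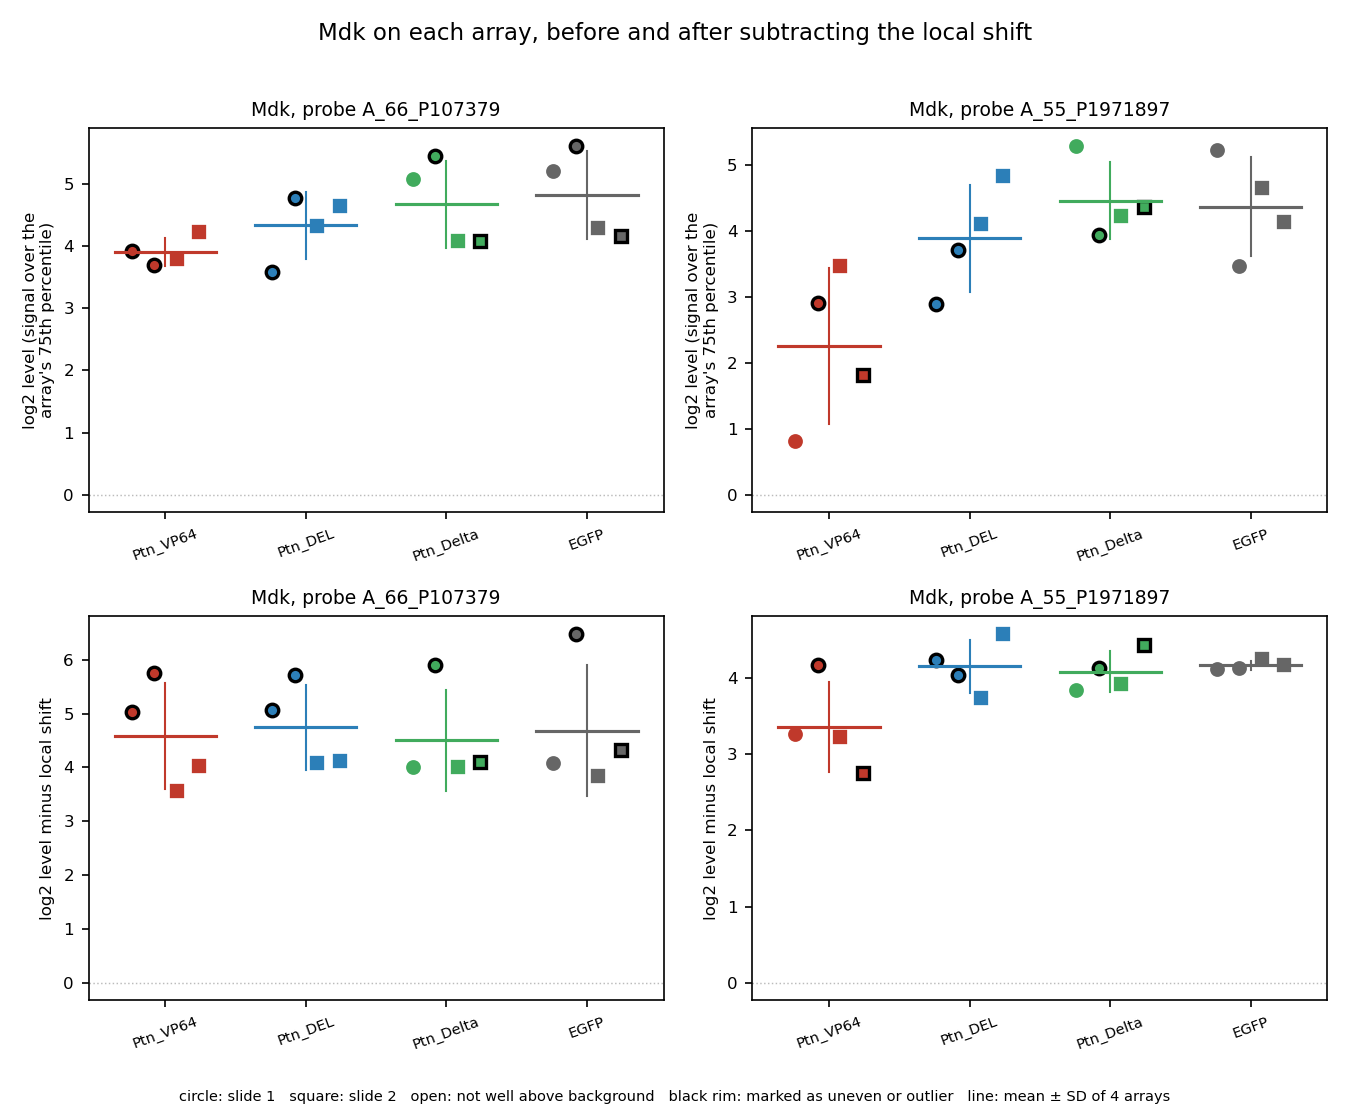
Mdk level (log2 of signal over the array's 75th percentile) on each array for both probes, as measured and with the local shift subtracted, with mean and SD over 4 arrays. On probe A_55_P1971897 the Ptn_VP64 mean was 2.26 as measured and 3.36 with the shift subtracted, against 4.37 and 4.17 with EGFP.

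Among the signalling receptors, Ptprz1 and Alk were at or near background. Ptprz1, the chondroitin sulfate-bearing receptor phosphatase through which pleiotrophin acts, was measured by probe A_55_P2000439 at −2.67, −2.79, −2.30 and −2.24 with Ptn_VP64. It had −1.78, −2.27, −3.19 and −1.65 with Ptn_DEL, −2.14, −2.87, −2.11 and −1.44 with Ptn_Delta, and −2.04, −1.34, −2.79 and −3.22 with EGFP. It was well above background on 2, 3, 4 and 0 arrays in that order of groups, and every group overlapped every other. The other Ptprz1 probe was above background on 0 of the 16 arrays, with levels of −4.95 to −1.44. Alk, the receptor tyrosine kinase, was well above background on 0 Ptn_VP64 arrays, 3 Ptn_DEL arrays, 2 Ptn_Delta arrays and 0 EGFP arrays. Its measured levels ran between −4.19 and −2.96 with Ptn_VP64, −3.65 and −2.04 with Ptn_DEL, −4.49 and −1.62 with Ptn_Delta, and −4.62 and −2.37 with EGFP. The groups overlapped, and no fold is given for either gene against EGFP, nor for Alk against Ptn_VP64, since too few arrays measured them.

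Ptprs and Lrp1 were measured in every group. Ptprs, a receptor phosphatase that binds heparan and chondroitin sulfate chains, had 2.88, 3.14, 3.00 and 3.65 with Ptn_VP64, 3.64, 2.57, 3.29 and 3.10 with Ptn_DEL, 2.69, 2.96, 2.96 and 3.29 with Ptn_Delta, and 3.71, 2.57, 2.69 and 2.80 with EGFP. All 16 values fell between 2.57 and 3.71 and the groups overlapped throughout. With every spot kept, Ptn_VP64, Ptn_DEL and Ptn_Delta differed from EGFP by 0.22, 0.21 and 0.04. The fit, which left out 2 marked spots in Ptn_VP64, 1 in Ptn_Delta and 2 in EGFP, gave −0.26 ± 0.86, −0.05 ± 0.74 and −0.07 ± 0.63, so the sign turned with the marked spots in all 3. Lrp1, an endocytic receptor that takes up midkine, had −0.86, 0.43, −1.75 and −0.37 with Ptn_VP64, −0.36, −0.36, −1.10 and 0.02 with Ptn_DEL, 0.34, 0.55, −2.58 and −2.25 with Ptn_Delta, and −1.09, −0.71, −0.43 and −1.28 with EGFP. Its Ptn_Delta arrays split by slide, at 1.34 above EGFP within slide 1 and −1.56 within slide 2. The pooled differences were 0.24 ± 0.81 for Ptn_VP64, 0.43 ± 0.81 for Ptn_DEL and −0.11 ± 0.81 for Ptn_Delta.

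**Figure D4:**
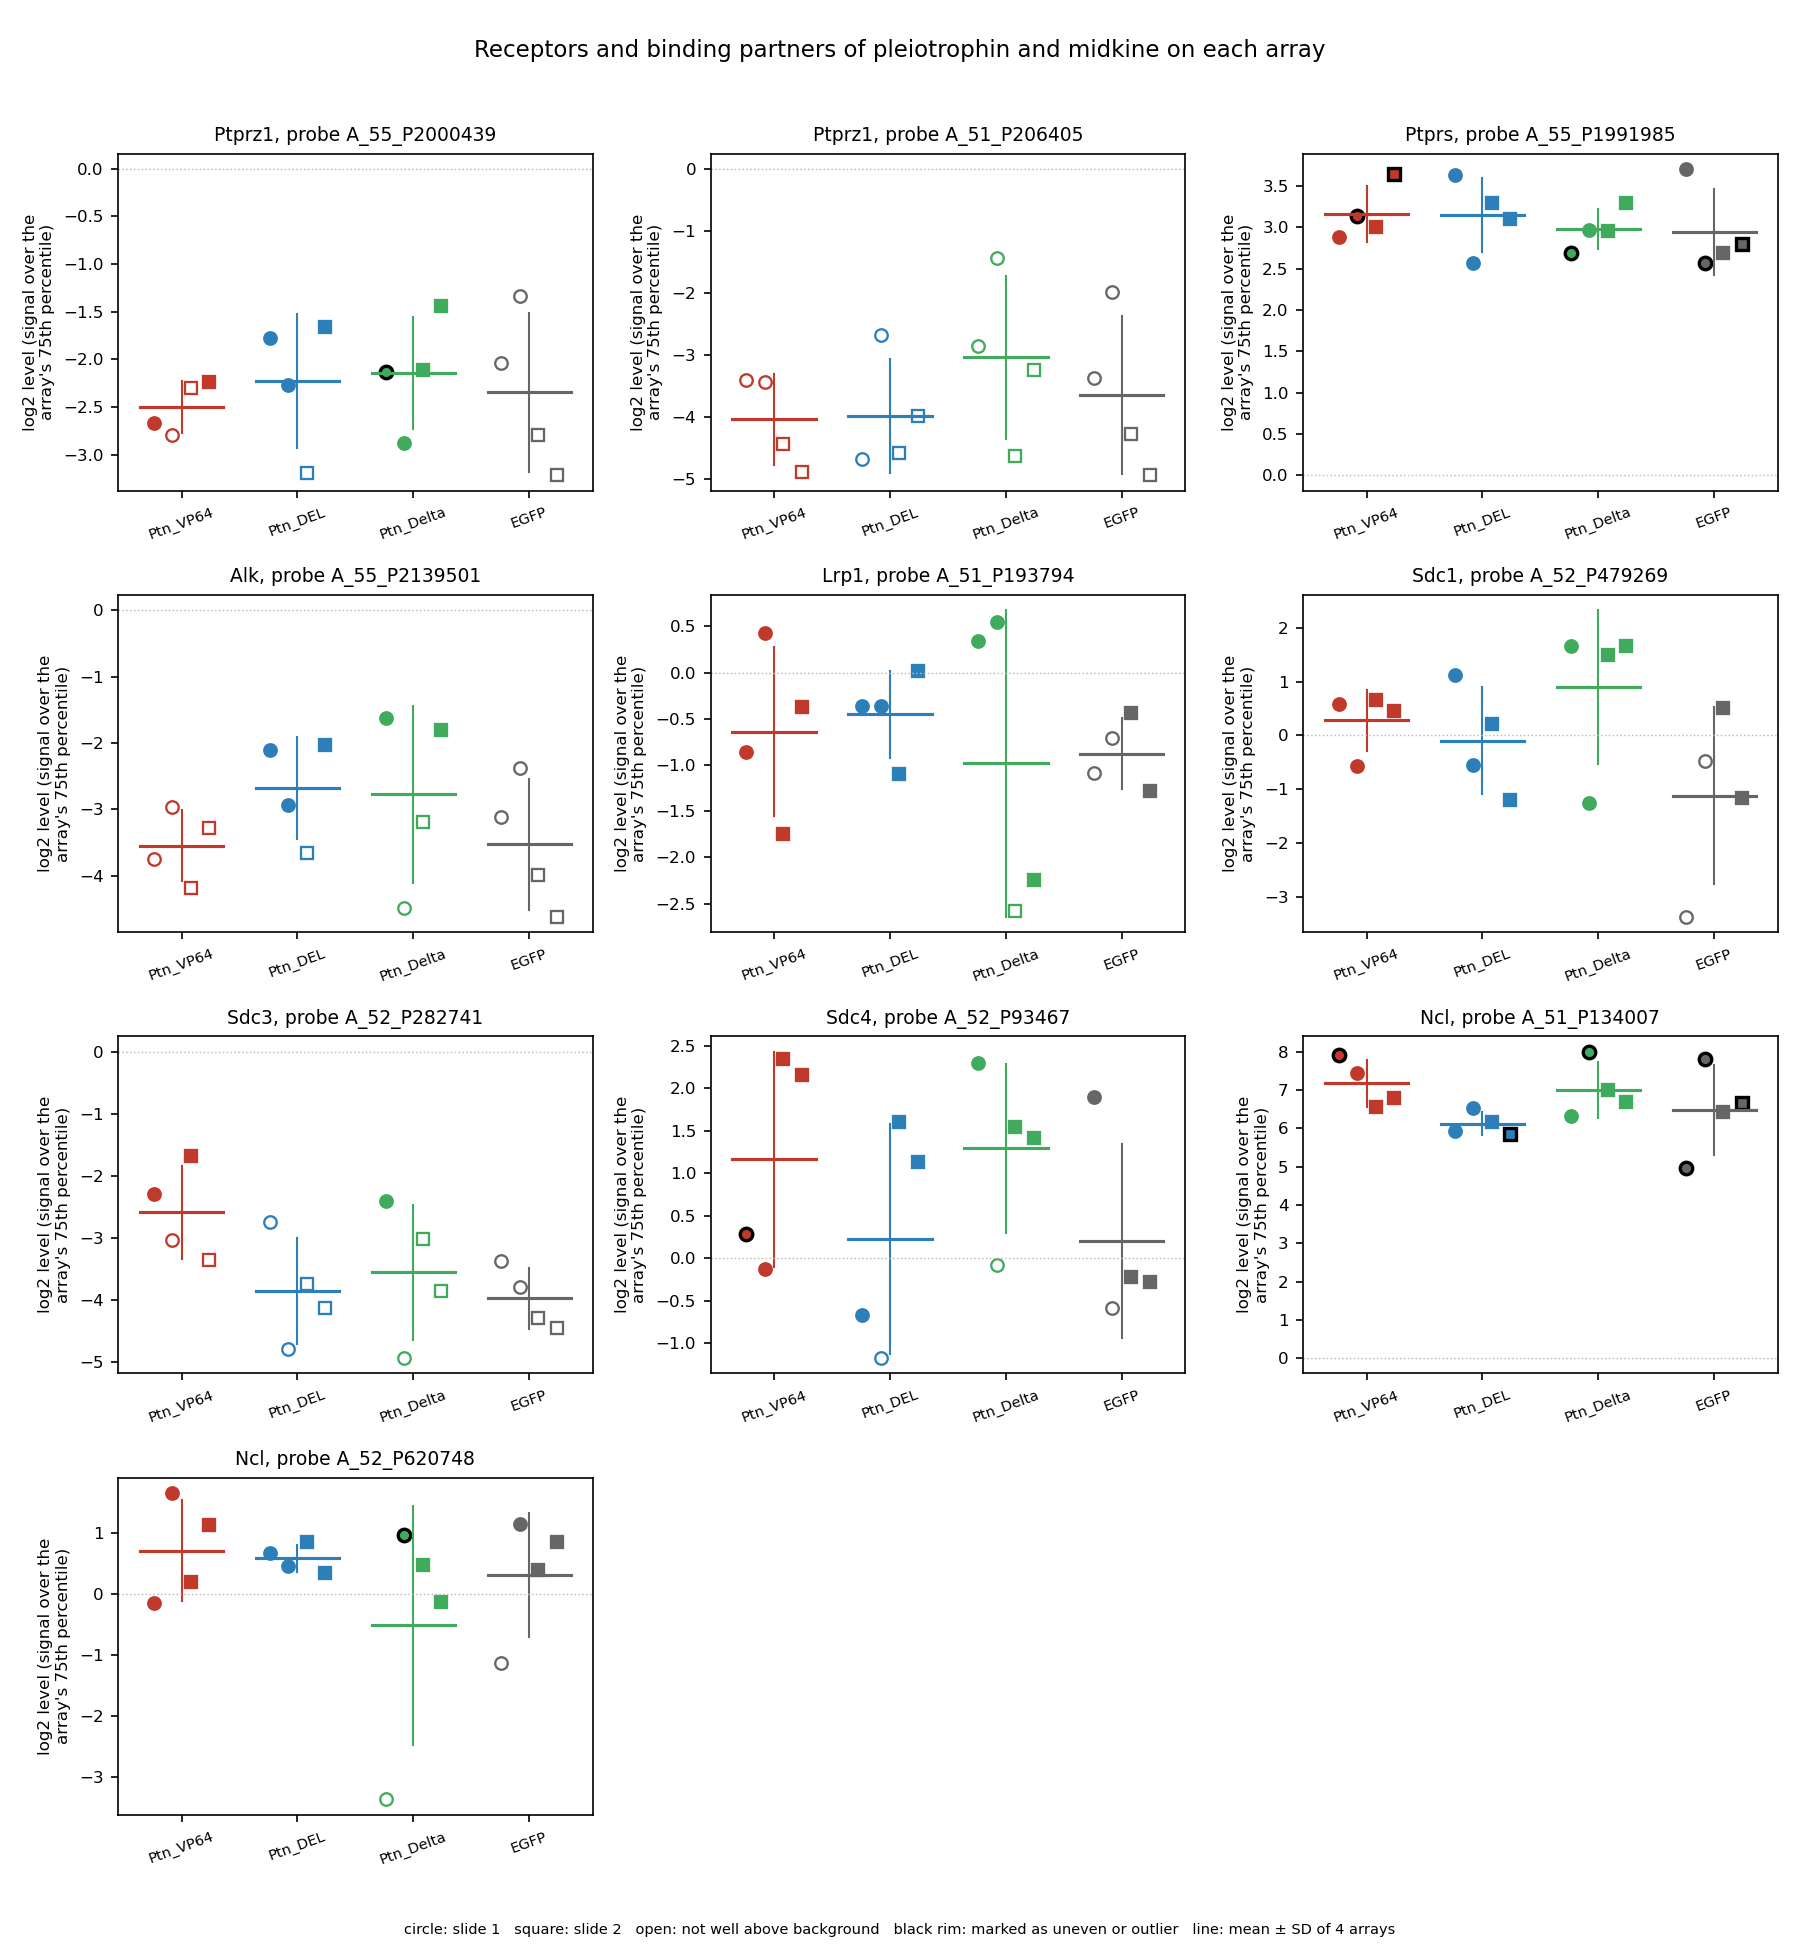
Level (log2 of signal over the array's 75th percentile) of each receptor and binding-partner probe on the 16 arrays, with mean and SD over 4 arrays and each probe on its own axis. Ptprs lies between 2.57 and 3.71 on all arrays. Sdc4 runs from −0.58 to 1.89 within EGFP and Lrp1 from −2.58 to 0.55 within Ptn_Delta.

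The syndecans are transmembrane proteoglycans whose heparan sulfate chains hold pleiotrophin and midkine. As measured, all 3 probes had higher means than EGFP in Ptn_VP64, in Ptn_DEL and in Ptn_Delta, though Sdc4 in Ptn_DEL by only 0.02. At Sdc1 and Sdc4 the Ptn_Delta mean was above the Ptn_VP64 mean. Sdc3 was well above background on 0 EGFP arrays. Sdc1 and Sdc4 were not called in any comparison, and Sdc3 was not tested. Sdc1 had 0.58, −0.57, 0.65 and 0.44 with Ptn_VP64, 1.12, −0.55, 0.21 and −1.20 with Ptn_DEL, 1.66, −1.26, 1.49 and 1.67 with Ptn_Delta, and −3.37, −0.48, 0.51 and −1.16 with EGFP. The groups overlapped, and the lowest EGFP value, replicate 1, was at the floor of its array. The difference from EGFP was 1.40 ± 0.84 for Ptn_VP64 (unadjusted p = 0.126), 1.02 ± 0.84 for Ptn_DEL and 2.02 ± 0.84 for Ptn_Delta (unadjusted p = 0.0367, limma adjusted p = 1.00). Without EGFP replicate 1 the Ptn_VP64 and Ptn_Delta differences were 0.43 ± 0.80 and 1.04 ± 0.80. The local shift at the Sdc1 spot was −2.75 on that array.

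With the local shift subtracted, Sdc1 had 0.83, 0.17, 0.37 and 0.23 with Ptn_VP64, 0.24, 0.43, 1.12 and 0.82 with Ptn_Delta, and −0.62, −0.02, 0.16 and −0.79 with EGFP. Both TALE groups then lay just above the EGFP arrays, by 0.72 ± 0.32 for Ptn_VP64 (unadjusted p = 0.0596) and 0.97 ± 0.32 for Ptn_Delta (unadjusted p = 0.0189). Limma adjusted p was 0.730 and 0.983. The EGFP value of −0.62 comes from the spot at the floor and is no measurement.

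Sdc4 had 0.28, −0.12, 2.35 and 2.15 with Ptn_VP64, −0.66, −1.17, 1.61 and 1.13 with Ptn_DEL, 2.29, −0.08, 1.54 and 1.41 with Ptn_Delta, and 1.89, −0.58, −0.22 and −0.28 with EGFP. Replicate 1 of EGFP stood above the other 3 EGFP arrays, and the 2 slides gave opposite signs for Ptn_VP64, −0.78 on slide 1 and 2.50 on slide 2 with marked spots left out. Pooled, Ptn_VP64 differed from EGFP by 0.86 ± 0.90 (unadjusted p = 0.369). With the local shift subtracted the levels were 1.74, 1.19, 1.88 and 1.81 with Ptn_VP64, 1.01, −0.23, 1.58 and 0.44 with Ptn_DEL, 1.81, 0.27, 1.30 and 0.70 with Ptn_Delta, and 0.61, 0.02, −0.56 and 0.05 with EGFP. All Ptn_VP64 arrays were then above all EGFP arrays, by 1.63 ± 0.50 (unadjusted p = 0.0137, limma adjusted p = 0.647), while Ptn_DEL and Ptn_Delta overlapped EGFP. In that setting 4 of the 12 member probes, both of Ptn, Sdc1 and Sdc4, did not overlap in the higher direction between Ptn_VP64 and EGFP, where 4.46% of all probes did so. As measured, 2 of 12, both of Ptn, did so. Between Ptn_Delta and EGFP 1 probe, that of Sdc1, did so with the shift subtracted, where 2.47% of all probes did.

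Sdc3, the syndecan of the nervous system and a neuronal receptor for pleiotrophin, was well above background on 3 arrays, 2 of Ptn_VP64 and 1 of Ptn_Delta. Its levels were −2.30, −3.03, −1.69 and −3.35 with Ptn_VP64, −2.74, −4.79, −3.75 and −4.14 with Ptn_DEL, −2.41, −4.94, −3.02 and −3.86 with Ptn_Delta, and −3.37, −3.79, −4.29 and −4.45 with EGFP. The lowest Ptn_VP64 level, −3.35, was just above the highest EGFP level, −3.37, which stood at the floor of its array, as did EGFP replicate 3. The probe did not pass the filter, and with 2 of 4 Ptn_VP64 arrays measured no fold is given.

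Ncl, nucleolin, is an abundant nucleolar protein that also appears at the cell surface and binds both ligands. Its first probe, A_51_P134007, had 7.91, 7.45, 6.55 and 6.79 with Ptn_VP64, 5.94, 6.53, 6.18 and 5.85 with Ptn_DEL, 6.32, 8.01, 7.00 and 6.70 with Ptn_Delta, and 4.97, 7.82, 6.43 and 6.67 with EGFP. It was saturated on 6 arrays, at least 1 in each group, so that the size of a difference is not measured there. Ptn_VP64 and EGFP overlapped. The Ptn_VP64 arrays were all above the Ptn_DEL arrays as measured, where 1.03% of all probes did not overlap in the higher direction, and the groups overlapped with the local shift subtracted. The second Ncl probe, A_52_P620748, had −0.15, 1.65, 0.19 and 1.13 with Ptn_VP64, 0.67, 0.46, 0.84 and 0.34 with Ptn_DEL, −3.36, 0.97, 0.48 and −0.14 with Ptn_Delta, and −1.14, 1.14, 0.39 and 0.85 with EGFP, and no group stood apart.

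The local shift around the member spots differed from array to array, and its part in their levels was not tested. Subtracting the local shift made the pooled SD within groups smaller at 10 of the 12 probes that passed the filter, with a median of 0.58 after and 0.95 before. For Sdc1 it was 0.36 after and 1.23 before, and for Mdk A_55_P1971897 it was 0.37 after and 0.86 before. It was larger for Mdk A_66_P107379 (0.99 after, 0.58 before) and for Ptprz1 A_55_P2000439 (1.00 after, 0.63 before). The shift is computed at bright spots and may not hold for dim ones.

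**Figure D5:**
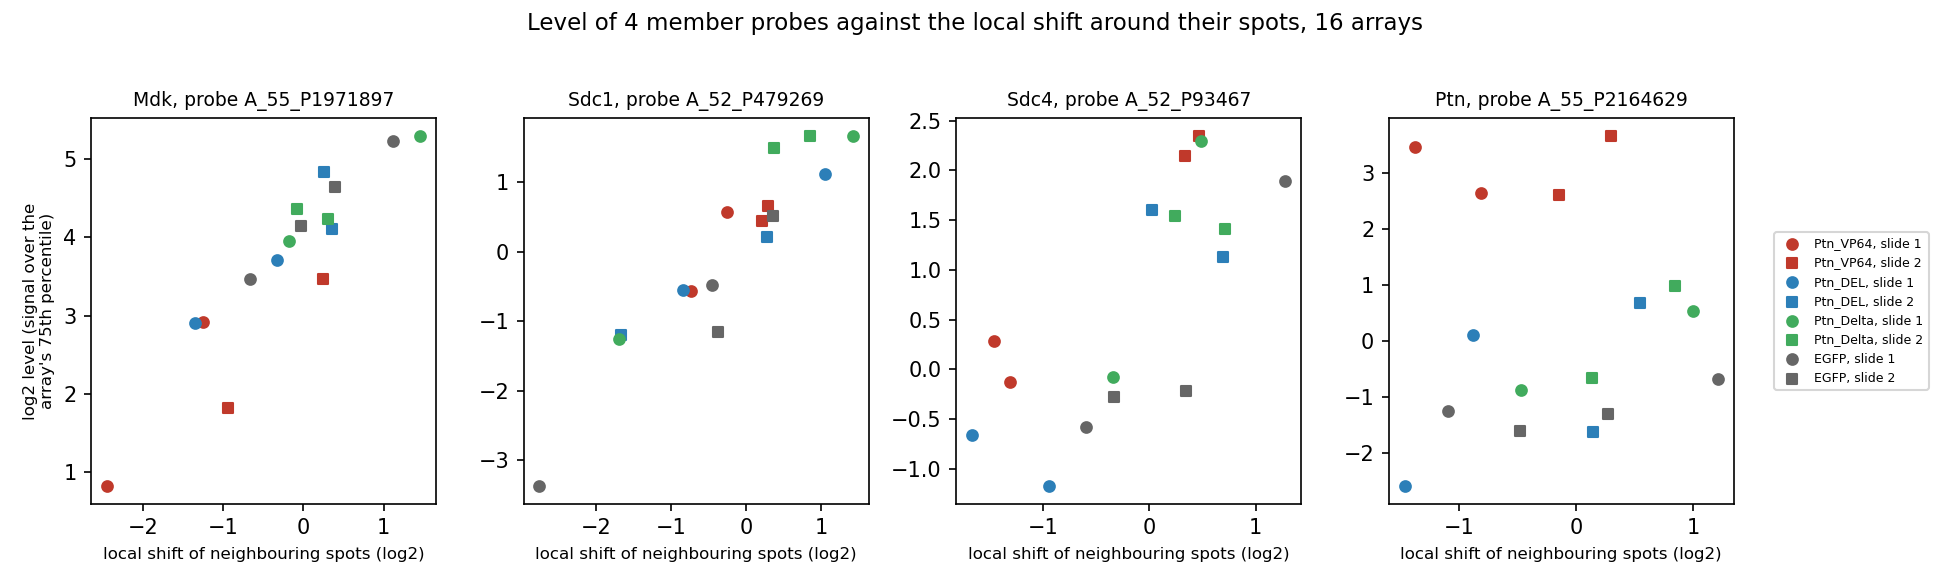
Level (vertical axis, log2 of signal over the array's 75th percentile) against the local shift of neighbouring spots (horizontal axis, log2) for 1 probe each of Mdk, Sdc1, Sdc4 and Ptn on the 16 arrays, with groups by colour, circles for slide 1 and squares for slide 2. The lowest Mdk level, 0.82 in Ptn_VP64, lies at a shift of −2.45 and the lowest Sdc1 level, −3.37 in EGFP, at −2.75. The 4 Ptn_VP64 points of Ptn lie at the top of their panel, at shifts of −1.38 to 0.30. The part of the shift in these levels was not tested.

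The genes around the 2 ligands were read as lists. Of 16 other binding partners of pleiotrophin and midkine, such as integrins and further proteoglycans, 12 were tested and 0 called in Ptn_VP64 against EGFP. Of these, 9 were higher and 3 lower, with a median of 0.51, against 0.02 over all probes. In Ptn_DEL 11 were higher and 1 lower (median 0.61, against 0.12 over all probes, of which 59.5% were higher). In Ptn_Delta 8 were higher and 4 lower (median 0.86, against 0.14, with 59.4% of all probes higher), again with 0 called. The 3 with the smallest p in Ptn_VP64 against EGFP were Lrp2, an endocytic receptor of the LRP1 family, Itgav, an integrin chain, and Sdc2, a further syndecan. Lrp2 differed by 2.47 ± 0.75 (unadjusted p = 0.0116), with levels of 1.64 to 3.38 in Ptn_VP64, 1.80 to 2.99 in Ptn_DEL, 1.66 to 3.13 in Ptn_Delta and −0.01 to 1.05 in EGFP. As measured, the Ptn_VP64 arrays lay above all EGFP arrays for Lrp2, where 3.59% of all probes did so. The Ptn_DEL and Ptn_Delta arrays lay above them too, and the share over all probes is not given for those 2 contrasts. With the local shift subtracted, Lrp2 was 2.37 to 3.31 in Ptn_VP64, 1.78 to 2.55 in Ptn_DEL, 1.68 to 2.71 in Ptn_Delta and 0.38 to 2.15 in EGFP. Ptn_VP64 alone then did not overlap EGFP, where 4.46% of all probes lay apart in the higher direction. Itgav differed by 1.85 ± 0.73 (unadjusted p = 0.0364) and Sdc2 by 1.36 ± 0.68 (unadjusted p = 0.0724).

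The remaining lists held no called gene in Ptn_VP64, Ptn_DEL or Ptn_Delta against EGFP. Of 6 receptor relatives and ALK ligands 3 were tested, and in Ptn_VP64 over EGFP the receptor phosphatases Ptprg, Ptprf and Ptprd differed by 1.74 ± 0.83, 0.25 and −0.93. Of 23 genes of heparan and chondroitin sulfate synthesis, which make the chains the ligands bind, 19 were tested, 11 higher and 8 lower in Ptn_VP64 than in EGFP (median 0.06), 13 higher and 6 lower in Ptn_DEL, and 10 higher and 9 lower in Ptn_Delta. Chst15 and Chst12, chondroitin sulfotransferases, differed by 0.97 and 0.65 in Ptn_VP64 over EGFP, and Ext2, a heparan sulfate polymerase, by 0.82. Of 13 PTPRZ1 substrates and ALK adaptors, all tested, 7 were higher and 6 lower in Ptn_VP64 (median 0.29), and 10 were higher and 3 lower both in Ptn_DEL and in Ptn_Delta. Git1, a PTPRZ1 substrate, differed by 1.28 in Ptn_VP64 over EGFP. In the same list Pik3r1, a regulatory subunit of phosphoinositide 3-kinase, differed by 1.18 and the kinase Akt1 by 1.00.

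Over the 16 arrays, with slide means removed, the genes whose levels followed Ptn most closely were Il33 (Pearson r = 0.89), Smarca2 (0.88), Nnmt (0.88), Sh3bp5 (0.86) and Kazald1 (0.85), among 12880 genes compared. These values describe arrays that share groups and slides and carry no test. Smarca2, a chromatin-remodelling ATPase, was at −2.09 to −1.65 in Ptn_VP64, −3.87 to −3.32 in Ptn_DEL, −4.29 to −3.14 in Ptn_Delta and −4.54 to −3.37 in EGFP. It was well above background on the 4 Ptn_VP64 arrays and on 0 of the other 12, so it passed the filter through Ptn_VP64 and its r rests on unmeasured levels elsewhere. Nnmt was well above background on 4 Ptn_VP64, 2 Ptn_DEL, 1 Ptn_Delta and 0 EGFP arrays, and Sh3bp5 on 3 Ptn_VP64 arrays and 1 Ptn_Delta array. Both genes likewise passed the filter only with the Ptn_VP64 arrays, and their r rests largely on unmeasured levels elsewhere. The other members had lower r. Sdc4 had r = 0.40 and rank 920, Ncl 0.28, Sdc1 0.14, and Mdk was lowest at −0.35.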

How the data were processed

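RNA from 16 samples of transfected E14 cells was hybridised to 1-colour Agilent arrays. Per the file headers, the authors' intensity values come from Agilent Feature Extraction 11.5.1.1, with background and spatial trend removed and no scaling across arrays. The authors' deposited series table, on a log2 scale with equal distributions on all arrays, was an alternative. The level is log2 signal minus the log2 75th percentile of the array's non-control spots. Spots marked uneven or outlying were left out of the fit, repeated spots were averaged, and a probe was tested if at least 4 of 16 arrays had it well above background. Arrays were averaged to 2 samples a group in the 3 possible pairings and fitted together with limma 3.58.1 in R 4.3.3, 2-sided. The largest p was kept, with Benjamini-Hochberg adjustment over all probes tested and a threshold of 0.05. Local shift was the median over 21 by 21 spots, from 17906 spots with a median level of at least −1. The fit was tested on simulated data. The number of arrays limits the precision. Probe names came through RefSeq (27656 probes with 1 symbol). Every member was named with every probe, of each list the 3 genes with the smallest p in Ptn_VP64 against EGFP, and the 5 genes with the highest correlation to Ptn. Members and lists were chosen with earlier results of these data known. Same-numbered arrays of different groups correlated at −0.12 to 0.42, with 13 of 24 pairs over 0.1, so the numbers were not taken as pairs.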

Additional observations from a re-analysis of the deposited data

Results flagged for a closer look

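Of the 56 sets of 4 arrays examined, 2 held an array far from the other 3, and chance gives about 1 in 20. Sdc1 in Ptn_Delta was −1.26 on replicate 2, while the other 3 arrays lay between 1.49 and 1.67, and the local shift at that spot was −1.69. Sdc4 in EGFP was 1.89 on replicate 1, while the other 3 lay between −0.58 and −0.22, and the local shift there was 1.28. The part of the local shift in either was not tested.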

How the results depend on the processing

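The Ptn difference between Ptn_VP64 and EGFP stayed positive under 22 alternatives, at 3.69 to 5.38, and was called by limma in 2 of the 21 that gave a test, both chosen after seeing the data. It was called at 4.31 with 16 arrays unaveraged and marked spots kept, and at 4.37 (limma adjusted p = 0.0436) for the second probe unaveraged and patch-corrected, where 1.71% of probes were called. Each of these settings called 1 member probe. The replicate block gave 5.38 ± 1.24 (limma adjusted p = 0.177). Leaving out 1 array at a time, the difference on single arrays was 4.12 to 4.48 (exact permutation p = 0.0571, the smallest 4 against 3 allows). No value was possible without Ptn_VP64 replicate 3 or with patch correction for the first probe, since too few unmarked Ptn_VP64 spots were left. Listed values of Alk, which was well above background on 0 Ptn_VP64 and 0 EGFP arrays and so has no measured difference there, gave 0.70 unaveraged and patch-corrected (limma adjusted p = 0.270), against −0.02, and the cause was not tested. Of 48 differences of the 8 other genes tested, 36 changed sign under some alternative and 0 were called. Over all probes, calls between Ptn_VP64 and EGFP numbered 0 in the reported setting, 2 unaveraged, 4 without the slide term, 22 unaveraged with marked spots kept, 41 with the replicate block, 351 patch-corrected and unaveraged, and 1 and 2 with averaged patch-corrected and shift-subtracted levels. Leaving out 1 array moved the 22 to between 2 (without Ptn_VP64 replicate 2) and 34 (without Ptn_Delta replicate 1). Dim probes (Ptprz1, Alk, Sdc3) have only bounds on many arrays.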
